A study of Rattus norvegicus with 12 samples.

Results

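Transcript levels of 10 genes for transcription factors that build and divide the cell lineages of the ovary were followed in rat ovaries: Foxl2, Gata4, Gata6, Wt1, Runx1, Runx2, Cebpb, Tcf21, Lhx9 and Sox9. The genes were chosen by name, and all 10 were found among the 19730 genes of the expression table. Whole ovaries of female Sprague Dawley rats, wild type and in postnatal week 15, were sequenced in 1 library per rat, with 4 rats in each of 3 groups. Control rats were untreated and ate standard pellets. PCOS rats received letrozole at 1 mg/kg/day by mouth together with a high-fat diet for 30 days, and were kept as models if their vaginal smears stayed in metestrus and diestrus. PCOS-MV rats went through the same letrozole and diet and then received mogroside V by gavage at 600 mg/kg/day for 30 days. All rats were collected at the end of the treatment period. The stated letrozole and diet of the PCOS rats had thus ended before the 30 days of mogroside V. A vehicle gavage of the PCOS rats in those days is not stated. Letrozole blocks aromatase, the enzyme that turns androgens into estrogens, and is used to model polycystic ovary syndrome; mogroside V is a sweet triterpene glycoside of monk fruit. The estrous stage of each rat at collection is not given in the sources used here.

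These factors act at different steps in the life of a gonad. WT1, LHX9 and GATA4 are needed for the gonad to form at all, FOXL2 keeps granulosa cells from taking on the features of testicular Sertoli cells, which depend on SOX9, and TCF21 marks mesenchymal progenitors of stroma and theca. RUNX1, RUNX2 and C/EBPβ are switched on in granulosa cells by the ovulatory surge of luteinizing hormone and take part in ovulation and in the formation of the corpus luteum, where GATA6 is also active. In a whole ovary, the level of such a transcript depends on which follicles and corpora lutea are present as well as on the activity of the gene.

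Levels are given as FPKM, the fragment count of a gene scaled by its length and by the fragments of the library, so that genes can be set side by side. Groups were compared on the log2(FPKM + 1) scale with limma, a linear model whose variances are moderated across genes, over the 13430 genes whose mean reached 1 FPKM, differences are given in log2 units, and a gene was called where the Benjamini-Hochberg adjusted p was under 0.05. Sox9, with a lower mean, was left out of that test, so 9 of the 10 genes were tested. The steps between low values placed the depth of the libraries at about 30300000 to 37000000 fragments, an estimate from the FPKM values. Correlations of log2(FPKM + 1) between libraries of a group were 0.9538 or higher. Control replicate 3 stood apart: its summed FPKM of 7 surface epithelium markers was 200, against 23.5 to 37.3 in the other controls, and that of 4 oviduct markers 27.6, against 2.79 to 4.73. Its 6 smooth muscle markers summed to 915 FPKM, against 342 to 501 in the other controls. Granulosa and luteal genes were abundant in every library, with summed FPKM of 913 to 2280 for 13 granulosa markers and 2000 to 8940 for 9 luteal markers, and 7 oocyte markers summed to 14.0 to 25.5.

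Between PCOS and control ovaries, 4 of the 9 genes tested were called, where 27.4% of all genes tested were called. Gata4 and Tcf21 rose (11.9% of all genes rose), and Runx2 and Cebpb fell (15.6% fell). Between PCOS-MV and PCOS ovaries, 3 of 9 were called, where 25.7% of all genes were. Runx2 and Cebpb rose (14.3% of all genes rose) and Gata4 fell (11.4% fell). The same PCOS libraries stand in both comparisons, which are therefore not independent. Between PCOS-MV and control ovaries, 0 of the 9 were called by limma, 2 had an unadjusted p under 0.05, and 1 gene of all 13430 was called (0.00745%). The median log2 difference of the 9 genes was -0.076, 0.22 and 0.016 in the 3 comparisons. The median size of the log2 difference over all genes tested was 0.221, 0.205 and 0.12. With 9 genes tested, nothing particular to the list is read from these shares, and the members are described 1 by 1. In a bulk library, fewer cells of a type and less RNA per cell cannot be told apart, and this holds for every level below.

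**Figure D1:**
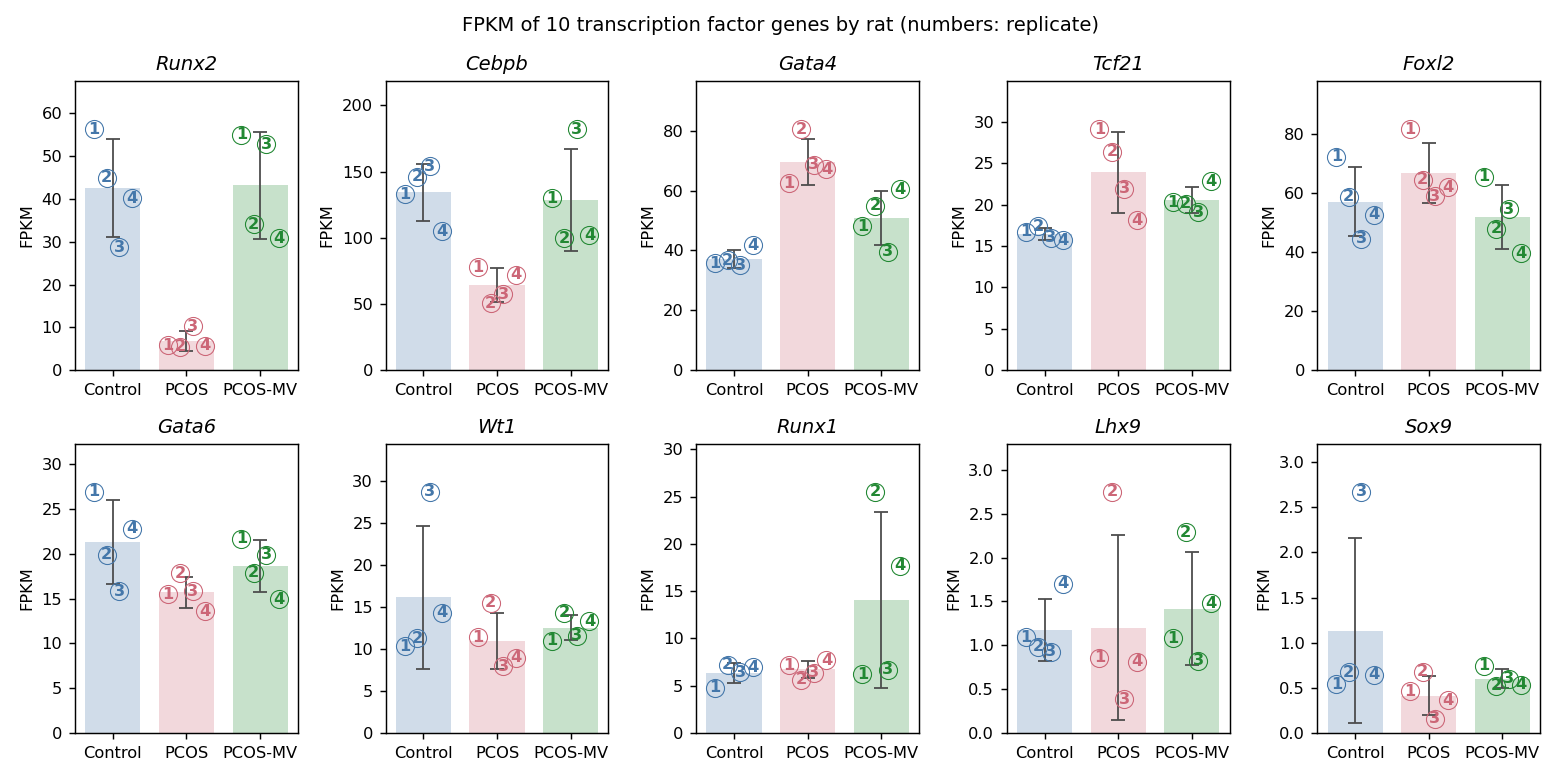
FPKM of the 10 genes in each of the 12 rats, 1 panel per gene with its own axis starting at 0. Numbered circles are rats by replicate number, bars are group means and error bars are SD (n = 4); Runx2 lies between 5.44 and 10.3 in the PCOS group and at 28.7 or higher in every other rat.

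Runx2 and Cebpb, which act in the ovulating and luteinizing follicle, were the members that fell. Runx2 (ENSRNOG00000020193) lies on the plus strand of chromosome 9 from 18564927 to 18773092 in the coordinates of the expression table, whose genome build is not given in the sources used here, with 9 exons. Cebpb (ENSRNOG00000057347), a gene of 1 exon, lies on the plus strand of chromosome 3 from 164424515 to 164425910. Because these 2 genes carry the largest differences, the 250 bases before their RefSeq starts in the GRCr8 assembly are shown, 5′ to 3′ on the gene's strand. RefSeq gives Runx2 starts 78182 bases apart, and so a window for each: chr9:23664808-23665057 for the first and chr9:23742990-23743239 for the second, with Cebpb at chr3:176816755-176817004. Capitals mark matches on either strand to TGTGGT (the letters bound by RUNX proteins), TTGCNNAA (a C/EBP motif) and TGACG (the cAMP response element half-site). These are coordinates of another assembly than that of the expression table.
Runx2, first start: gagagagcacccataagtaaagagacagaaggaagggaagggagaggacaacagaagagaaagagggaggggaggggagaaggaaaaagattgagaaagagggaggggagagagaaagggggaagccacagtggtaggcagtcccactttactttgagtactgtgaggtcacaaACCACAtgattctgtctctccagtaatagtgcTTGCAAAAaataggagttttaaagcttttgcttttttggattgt
Runx2, second start: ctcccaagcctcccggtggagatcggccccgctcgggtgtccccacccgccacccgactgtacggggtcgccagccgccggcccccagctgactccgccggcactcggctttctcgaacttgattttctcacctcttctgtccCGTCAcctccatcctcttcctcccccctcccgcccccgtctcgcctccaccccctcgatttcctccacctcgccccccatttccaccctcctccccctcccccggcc
Cebpb: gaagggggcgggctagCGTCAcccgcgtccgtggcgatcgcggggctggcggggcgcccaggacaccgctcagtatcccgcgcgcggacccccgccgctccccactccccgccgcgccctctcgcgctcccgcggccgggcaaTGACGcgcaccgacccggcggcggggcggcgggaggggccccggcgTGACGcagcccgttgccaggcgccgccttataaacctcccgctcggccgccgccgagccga
The first Runx2 window held 1 RUNX match at bases -76 to -71 from the start and 1 C/EBP match at -44 to -37, so letters of both factor families discussed here stand before this start. The second, with 70% G and C, held 1 cAMP half-site at -107 to -103. The Cebpb window, with 80.0% G and C, held 3 half-sites, which begin at -234, -107 and -61. Among 33469 promoter windows of the same length, 14.5% held the RUNX letters, 9.22% the C/EBP letters and 18.2% the half-site, with 0.813% holding 3 or more half-sites. A match describes the letters only.

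Runx2 was measured at 56.3, 45, 28.7 and 40.2 FPKM in the 4 control rats, at 5.88, 5.44, 10.3 and 5.68 in the PCOS rats and at 55.0, 34.1, 52.8 and 30.8 in the PCOS-MV rats. Every PCOS rat lay below every rat of the other 2 groups, whose ranges overlapped. The group means were 42.5 ± 11.4, 6.82 ± 2.3 and 43.2 ± 12.5 FPKM (SD, n = 4). Runx2 fell by 2.48 log2 units in the PCOS group (standard error 0.24, limma adjusted p = 0.000147), a 6.24-fold lower mean FPKM. It rose by 2.49 in PCOS-MV against PCOS (standard error 0.24, limma adjusted p = 0.000338), a 6.34-fold higher mean. By size, these were the 110th and the 77th largest differences of the 13430 genes. Both calls held in all fits with 1 library left out.

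Cebpb, which encodes C/EBPβ, was the most abundant member in control ovaries. Its level was 133, 146, 154 and 105 FPKM in the control rats, 77.7, 50.4, 57.5 and 72.2 in the PCOS rats and 130, 99.5, 182 and 102 in the PCOS-MV rats. As for Runx2, the PCOS rats lay below all other rats, the highest of them at 77.7 FPKM and the lowest of the others at 99.5 FPKM. The means were 135 ± 21.5, 64.4 ± 12.6 and 128 ± 38.5 FPKM (SD, n = 4). Cebpb fell by 1.06 log2 units in the PCOS group (standard error 0.17, limma adjusted p = 0.00198) and rose by 0.96 in PCOS-MV against PCOS (standard error 0.21, limma adjusted p = 0.0126).

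More luteal markers moved the way of these 2 genes than against it. Of 9 luteal markers tested, 5 fell and 2 rose in the PCOS group (median log2 difference -1.14), and 3 rose and 1 fell in PCOS-MV against PCOS (median 0.45). With 1 model for all 12 libraries, 3 were called in PCOS against control. Star, which moves cholesterol into mitochondria for steroid synthesis, fell by 1.70 log2 units, and Ptgfr, the luteal prostaglandin F2α receptor, fell by 2.07, while Lhcgr, the luteinizing hormone receptor, rose by 1.39. The summed FPKM of the 9 markers was 8940, 7770, 4860 and 5800 in the control rats, 3950, 2420, 2000 and 2840 in the PCOS rats and 8120, 3490, 7320 and 3540 in the PCOS-MV rats. In control ovaries the most abundant of them were Star, at 2220 ± 432 FPKM, and Cyp11a1, at 2190 ± 737 FPKM (SD, n = 4). Cyp11a1 is also in the theca list, so the sum does not measure luteal cells alone. Per 1000 FPKM of luteal markers, Runx2 stood at 5.79 to 6.94 FPKM in the control rats, at 1.49, 2.25, 5.12 and 2 in the PCOS rats and at 6.77 to 9.79 in the PCOS-MV rats. The PCOS rats lay below the others on this scale, though replicate 3 came close to the controls. Relative to luteal markers, a scale chosen after seeing the data, Runx2 fell by 1.36 log2 units in PCOS ovaries and rose by 1.73 in PCOS-MV against PCOS (exact permutation p = 0.0286 each, the smallest that 4 rats against 4 can give). Cebpb did not keep its difference on that scale: it stood at 14.9 to 31.7 FPKM per 1000 in control rats, 19.6 to 28.7 in PCOS rats and 16 to 28.8 in PCOS-MV rats. Its log2 differences were then 0.22 (exact permutation p = 0.429) and 0.033 (exact permutation p = 0.971). The sum follows mostly its most abundant genes, while Lhcgr, which is also in it, moved the other way. No conclusion on luteal content is drawn from this scale. Whether the number of luteal cells sets the level of Runx2 or Cebpb was not tested.

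**Figure D2:**
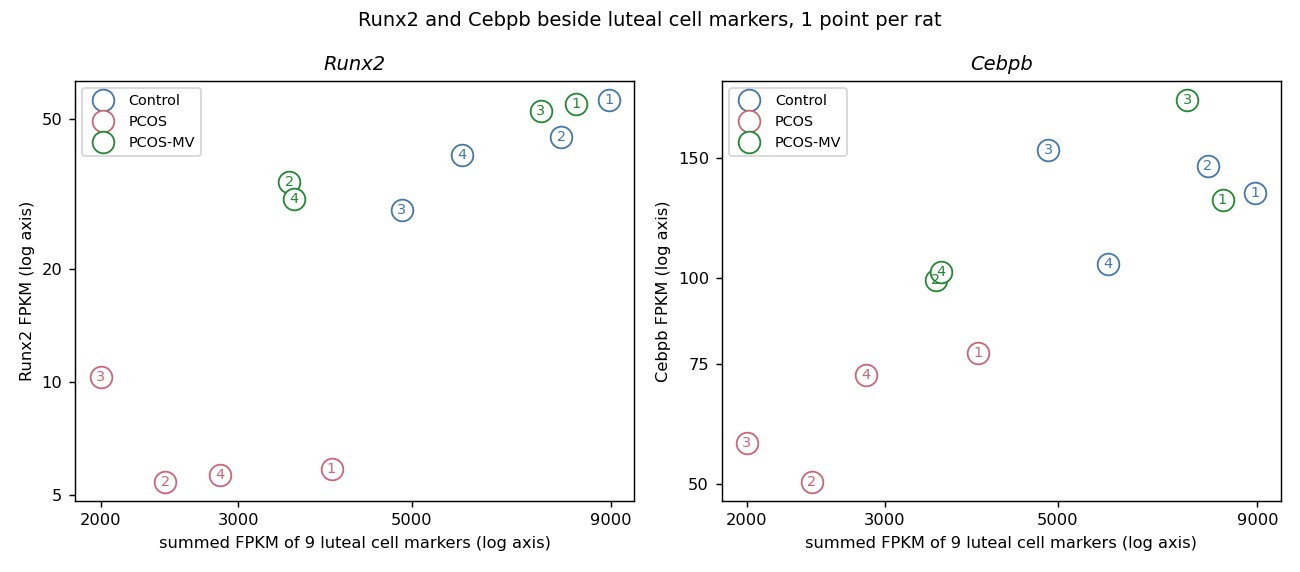
FPKM of Runx2 (left) and Cebpb (right) against the summed FPKM of 9 luteal cell markers in the same library, both on log axes, 1 numbered circle per rat. The 4 PCOS rats have the lowest Runx2 of all rats. PCOS-MV replicates 2 and 4 have luteal sums of 3490 and 3540, and PCOS replicate 1 has one of 3950. What luteal content contributed to either gene was not tested.

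Runx1, the relative of Runx2 that is also induced before ovulation, was not called. It lies on the minus strand of chromosome 11 from 32769165 to 33003021 (ENSRNOG00000001704). Its level was 4.77, 7.22, 6.40 and 6.94 FPKM in the control rats, 7.18, 5.60, 6.37 and 7.71 in the PCOS rats and 6.23, 25.5, 6.67 and 17.7 in the PCOS-MV rats. PCOS-MV replicates 2 and 4 were above all other rats, and replicates 1 and 3 lay within the range of the control rats. The log2 difference was 0.08 in PCOS against control (limma adjusted p = 0.697) and 0.75 in PCOS-MV against PCOS (95% interval -0.17 to 1.66, limma adjusted p = 0.209). Summed FPKM of 6 leukocyte markers was 70.2 and 56.4 in replicates 2 and 4 and 59.4 and 58.3 in replicates 1 and 3, so that this list did not separate the same rats. Other lists did. Theca markers summed to 802 and 839 FPKM in replicates 2 and 4 and to 2800 and 1920 in replicates 1 and 3. Luteal markers summed to 3490 and 3540 against 8120 and 7320, and surface epithelium markers to 84.3 and 38.6 against 34.5 and 25.6. The theca and luteal sums share Cyp11a1, which was at 757 and 772 FPKM in replicates 2 and 4. It was at 2630 and 1810 FPKM in replicates 1 and 3. As most of the theca sum is this gene, the 2 sums are not separate observations. The part of these lists in the Runx1 values was not tested.

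The 2 RUNX genes were also compared within each library. Runx1 stood at 0.0848 to 0.223 of Runx2 in the control rats, at 0.621 to 1.36 in the PCOS rats and at 0.113, 0.748, 0.126 and 0.574 in the PCOS-MV rats. The log2 ratio was 2.75 higher in PCOS than in control ovaries (exact permutation p = 0.0286, adjusted p = 0.0857 over the 9 ratio tests), without overlap, and 1.86 lower in PCOS-MV than in PCOS (exact permutation p = 0.0571). With 9 such tests on 4 rats against 4, none passed the adjustment. The smallest exact permutation p of this design is 0.0286, and a single test at that value cannot pass on its own. The lack of a pass therefore does not show that the ratios were alike. Cbfb, which encodes the partner that both RUNX proteins need to bind DNA well, was 33.9 ± 3.42, 34.5 ± 1.57 and 36.7 ± 3.05 FPKM in control, PCOS and PCOS-MV ovaries (SD, n = 4), and was called in no comparison. Of the 7 RUNX relatives and partners tested, 1 was called (2 in PCOS against control without control replicate 1; 0 in PCOS-MV against PCOS with the replicate block or without PCOS replicate 1, 2 or 4 or PCOS-MV replicate 2): Cbfa2t3, a corepressor gene of the ETO family, rose by 0.62 log2 units in PCOS (limma adjusted p = 0.0112) and fell by 0.54 in PCOS-MV against PCOS (limma adjusted p = 0.0263).

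Calls among C/EBP relatives stand beside 27.4% of all genes called in PCOS against control and 25.7% in PCOS-MV against PCOS. With 4 genes tested, nothing is read from their shares. Of 4 tested, 0 were called in PCOS against control by limma (1 with an unadjusted p under 0.05), and 1 in PCOS-MV against PCOS: Cebpd, an early gene of stress and cytokine responses, went from 17.5 ± 4.22 to 8.94 ± 1.15 FPKM (SD, n = 4), a fall of 0.87 log2 units (limma adjusted p = 0.00696). Without PCOS replicate 3, 1 and 2 of the 4 were called in these comparisons. In PCOS against control, 1 was also called after rescaling by the median ratio and with 1 model for all 12 libraries.

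**Figure D3:**
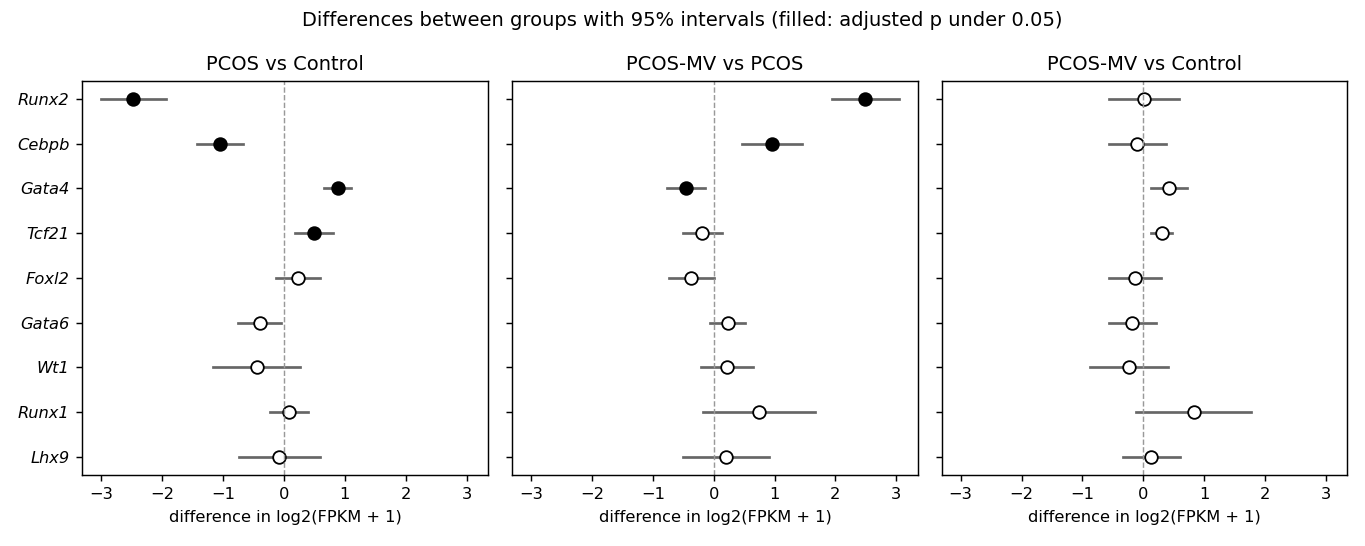
Differences in log2(FPKM + 1) between groups for the 9 genes tested, with 95% intervals; filled circles have a limma adjusted p under 0.05. Runx2, at -2.48 and 2.49, lies farthest from 0 in the left and the middle panel, and the right panel, PCOS-MV vs Control, has no filled circle.

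Of the GATA factors, Gata4 was called and Gata6 was not. GATA4 drives steroid synthesis and inhibin genes in granulosa and theca cells, and its gene (ENSRNOG00000010708) lies on the minus strand of chromosome 15 from 46386712 to 46432965 with 7 exons. Gata4 was measured at 35.7, 36.7, 35.1 and 41.7 FPKM in the control rats, 62.5, 80.5, 68.6 and 67.1 in the PCOS rats and 48.1, 55.0, 39.5 and 60.5 in the PCOS-MV rats. All PCOS rats were above all others, and 1 PCOS-MV rat, replicate 3, lay within the control range. The means were 37.3 ± 3.02, 69.7 ± 7.66 and 50.8 ± 9.09 FPKM (SD, n = 4). Gata4 rose by 0.88 log2 units in PCOS ovaries (standard error 0.095, limma adjusted p = 0.000285) and fell by 0.46 in PCOS-MV against PCOS (standard error 0.14, limma adjusted p = 0.0393). The rise was called in all 8 fits that left out 1 library. The fall was called in 2 of 8, those without PCOS replicate 1 or PCOS-MV replicate 4, and without any of the other 6 libraries its limma adjusted p was 0.0538 to 0.103.

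Gata6 (ENSRNOG00000023433), on the plus strand of chromosome 18 from 2416552 to 2446338, is expressed in granulosa, theca and luteal cells. It was measured at 26.9, 19.9, 15.8 and 22.8 FPKM in the control rats, 15.5, 17.8, 15.8 and 13.6 in the PCOS rats and 21.7, 17.9, 19.9 and 14.9 in the PCOS-MV rats. The groups overlapped, and the log2 differences were -0.40 (95% interval -0.75 to -0.054, limma adjusted p = 0.0841) and 0.23 (limma adjusted p = 0.213). Without control replicate 3, Gata6 would have been called in PCOS against control (limma adjusted p = 0.0142). Within a library, Gata4 stood at 1.33 to 2.23 times Gata6 in the control rats, at 4.03 to 4.92 times in the PCOS rats and at 1.99 to 4.05 times in the PCOS-MV rats. The log2 ratio was 1.32 higher in PCOS than in control ovaries (exact permutation p = 0.0286, adjusted p = 0.0857 over the 9 ratio tests) and 0.71 lower in PCOS-MV than in PCOS (exact permutation p = 0.0571).

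Granulosa markers were divided. Of 13 tested, 5 rose and 1 fell in PCOS ovaries, and 1 rose and 4 fell in PCOS-MV against PCOS. The 7 that were not called in PCOS against control had log2 differences of -0.81 to -0.14, and the median of the 13 was -0.23 in this comparison and -0.20 in PCOS-MV against PCOS. Cyp19a1, the aromatase gene, rose by 1.74 log2 units and Inhba, an activin and inhibin subunit, by 1.36, while Fst, the activin antagonist follistatin, fell by 0.74. The summed FPKM of the 13 markers was 1020 to 1470 in the control rats, 1590 to 2280 in the PCOS rats and 913 to 1520 in the PCOS-MV rats, and in PCOS ovaries the most abundant were Inha, an inhibin subunit, at 806 ± 131 FPKM and Gja1, a gap junction gene, at 541 ± 83.5 FPKM (SD, n = 4), both among those that rose. Per 1000 FPKM of these markers Gata4 stood at 28.0 to 34.3, 27.4 to 43.1 and 25.9 to 66.3 FPKM, with overlap of all groups. On this scale, chosen after seeing the data, the log2 differences of Gata4 were 0.27 (exact permutation p = 0.229) and 0.19 (exact permutation p = 0.571). The sum holds inhibin and steroid synthesis genes, which GATA4 drives. This scale therefore cannot tell granulosa content from the activity of Gata4, and no conclusion is drawn from it. The FOG cofactor genes of the GATA proteins, Zfpm1 and Zfpm2, were not called, with log2 differences of 0.13 and 0.37 in PCOS against control and -0.16 and -0.33 in PCOS-MV against PCOS, and of 3 GATA relatives and cofactors tested, 0 were called by limma in any comparison (2, 0 and 0 with an unadjusted p under 0.05 in the 3 comparisons). In PCOS against control, 1 of them was called without control replicate 3 or 4, with a pseudocount of 0.1 FPKM, or with 1 model for all 12 libraries.

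Foxl2, the keeper of granulosa identity (ENSRNOG00000017190, plus strand of chromosome 8 from 107194551 to 107195675, 1 exon), did not pass the test with all libraries and no block in any comparison. It was measured at 72.4, 58.8, 44.6 and 52.7 FPKM in the control rats, 81.7, 64.6, 58.9 and 62.0 in the PCOS rats and 65.6, 48.0, 54.5 and 39.7 in the PCOS-MV rats. All 3 groups overlapped, and the highest rat of each was replicate 1. The log2 difference was 0.23 in PCOS against control (95% interval -0.13 to 0.59, limma adjusted p = 0.307) and -0.37 in PCOS-MV against PCOS (95% interval -0.74 to -0.0019, limma adjusted p = 0.128). The first interval includes 0 and the second ends close to it. Foxl2 was called in PCOS-MV against PCOS with the replicate block (limma adjusted p = 0.0498) and without PCOS-MV replicate 1 (limma adjusted p = 0.0467).

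Sox9, the Sertoli cell determinant (ENSRNOG00000002607, plus strand of chromosome 10 from 101288489 to 101293379, 3 exons), was near the lower limit of measurement. It was at 0.537, 0.674, 2.67 and 0.647 FPKM in the control rats, 0.464, 0.677, 0.155 and 0.360 in the PCOS rats and 0.746, 0.520, 0.602 and 0.531 in the PCOS-MV rats. The highest value, in control replicate 3, stood for about 293 fragments and the lowest, in PCOS replicate 3, for about 16 at the estimated depth. These are the libraries with the highest and the lowest sum of surface epithelium markers, 200 and 6.07 FPKM. The other libraries did not all follow this order. PCOS-MV replicate 2, with the next highest sum (84.3 FPKM), had the lowest Sox9 of its group, 0.520 FPKM. Exact permutation tests gave p = 0.114 for PCOS against control, p = 0.2 for PCOS-MV against PCOS and p = 0.4 for PCOS-MV against control, and in a limma fit without the filter on low values the adjusted p was 0.279, 0.297 and 0.74. Foxl2 exceeded Sox9 in every library, by 16.7-fold in control replicate 3 and by 74.8-fold to 381-fold in the other 11. The log2 ratio of Foxl2 to Sox9 was 5.98 ± 1.32 in control, 7.51 ± 0.82 in PCOS and 6.43 ± 0.14 in PCOS-MV ovaries (SD, n = 4), and no difference passed the adjustment over the 9 ratio tests (exact permutation, lowest adjusted p = 0.0857).

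Genes that act on the testis side of sex determination did not move as 1 group. Of 7 tested, 2 rose and 2 fell in PCOS against control, and 0 rose and 1 fell in PCOS-MV against PCOS. Cldn11, a tight junction gene of Sertoli cells, went from 24.3 ± 4.52 to 217 ± 61.4 FPKM in PCOS ovaries (SD, n = 4), a rise of 3.08 log2 units, and to 30.1 ± 5.66 FPKM in PCOS-MV ovaries. Fgf9, a growth factor that sustains Sox9 in the fetal testis, fell by 1.49 log2 units, from 3.16 ± 0.36 to 0.482 ± 0.0446 FPKM (SD, n = 4). Ptgds, a prostaglandin D synthase, rose by 1.01, and Gdnf, a growth factor of Sertoli cells, fell by 0.56. Of 4 ovary-side signals tested, Fst and Ctnnb1, the gene of β-catenin, fell in PCOS by 0.74 and 0.53 and rose in PCOS-MV against PCOS by 0.87 and 0.41, where 1 of the 4 was called without PCOS replicate 4. On the testis side, the replicate block gave 2 calls in place of 4 in PCOS against control, and in PCOS-MV against PCOS the count was 2 with that block, with eBayes without trend or without PCOS replicate 1 or 2 or PCOS-MV replicate 2 or 4, and 4 with no filter on low values.

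Wt1 (ENSRNOG00000013074, plus strand of chromosome 3 from 95133713 to 95180564, 10 exons) is expressed in granulosa cells of small follicles and in the surface epithelium. It was measured at 10.3, 11.3, 28.7 and 14.3 FPKM in the control rats, 11.4, 15.5, 7.94 and 8.93 in the PCOS rats and 11, 14.3, 11.6 and 13.3 in the PCOS-MV rats. Control replicate 3 lay above all other rats, and the groups overlapped. The log2 differences were -0.45 (95% interval -1.17 to 0.27, limma adjusted p = 0.322) and 0.22 (limma adjusted p = 0.431). Wt1 was highest in the library with the highest sum of surface epithelium markers (200 FPKM, control replicate 3) and lowest in that with the lowest (6.07 FPKM, PCOS replicate 3), the same libraries as for Sox9. In these 2 libraries Krt19, a surface epithelium keratin, was at 70.8 and 2.21 FPKM. The sum was 23.5 to 200 FPKM in the control, 6.07 to 41.9 in the PCOS and 25.6 to 84.3 in the PCOS-MV rats, and of the 7 markers, Upk1b, a uroplakin gene, fell by 1.11 in PCOS and rose by 1.31 in PCOS-MV against PCOS, with no other called. The first call was lost with the replicate block, under which 3 markers were called in PCOS-MV against PCOS, and the second was lost without PCOS replicate 1 or 3 or PCOS-MV replicate 4. Control replicate 3 also had the highest sums of oviduct markers (27.6 FPKM) and smooth muscle markers (915 FPKM) of all 12 rats. What epithelium or smooth muscle contributed to Wt1 or Sox9 was not tested. Among 4 WT1 partners tested, 1 rose and 1 fell in PCOS: Basp1, a corepressor of WT1, rose by 0.64 log2 units (limma adjusted p = 0.000642) and fell by 0.66 in PCOS-MV against PCOS (limma adjusted p = 0.00905), and Wtip, a WT1-interacting protein, fell by 0.37. Without control replicate 2 or 4 or PCOS replicate 1, 2 or 3, 1 of the 4 was called in PCOS against control.

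**Figure D4:**
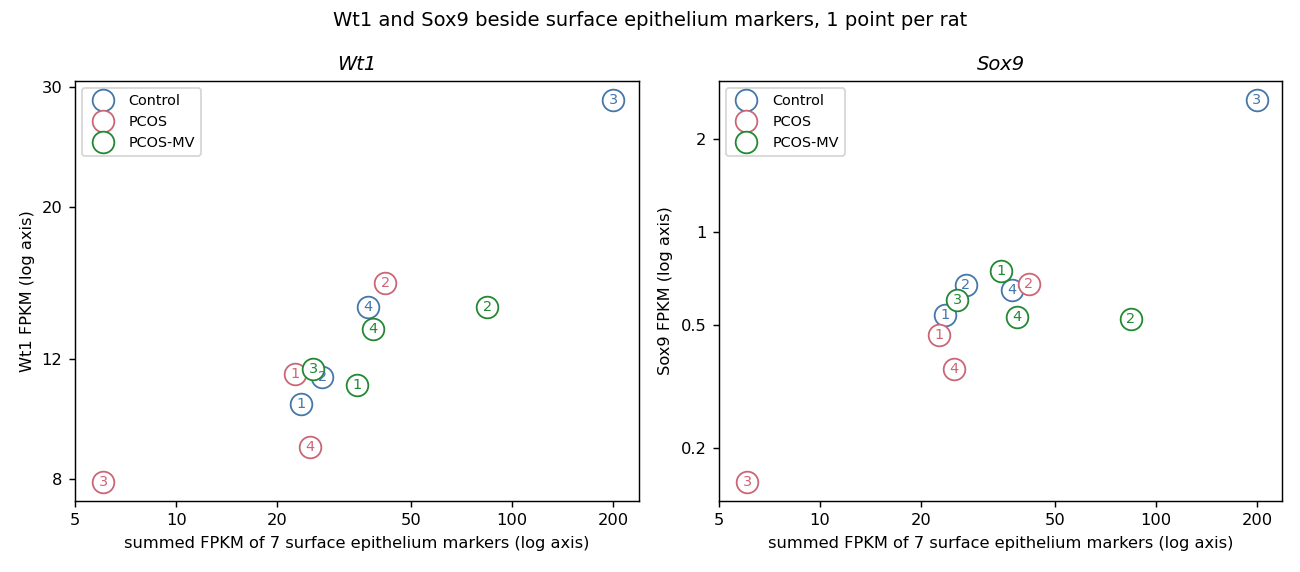
FPKM of Wt1 (left) and Sox9 (right) against the summed FPKM of 7 surface epithelium markers in the same library, both on log axes, 1 numbered circle per rat. Control replicate 3 is at the upper right of both panels, with Wt1 at 28.7 and Sox9 at 2.67 FPKM, and PCOS replicate 3 at the lower left, with 7.94 and 0.155 FPKM. PCOS-MV replicate 2 has the next highest sum (84.3) and the lowest Sox9 of its group (0.52 FPKM). Control replicate 3 also has the highest sums of oviduct and smooth muscle markers.

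Lhx9 (ENSRNOG00000010357, minus strand of chromosome 13 from 55861015 to 55878094, 7 exons), which the embryonic gonad needs to form, was at 1.09, 0.983, 0.924 and 1.70 FPKM in the control rats, 0.858, 2.75, 0.383 and 0.810 in the PCOS rats and 1.08, 2.29, 0.826 and 1.48 in the PCOS-MV rats. These values stood for about 15 to 124 fragments at the estimated depth. The highest and the lowest rat were both in the PCOS group, and the log2 differences were -0.076 (limma adjusted p = 0.871) and 0.21 (limma adjusted p = 0.659). Of 4 LIM relatives and partners tested, 2 fell in PCOS against control: Ldb2, a LIM-domain binding cofactor, from 7.18 ± 2.35 to 3.29 ± 0.318 FPKM (SD, n = 4), and Lhx6, a LIM homeobox gene, from 1.80 ± 0.461 to 0.944 ± 0.185 FPKM (SD, n = 4). Ldb2 rose again by 0.69 log2 units in PCOS-MV against PCOS (limma adjusted p = 0.01). The 2 calls in PCOS against control became 1 with the replicate block, with 1 model for all 12 libraries, and without control replicate 1 or 2 or PCOS replicate 1, 2 or 4.

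Tcf21 (ENSRNOG00000016700, plus strand of chromosome 1 from 23906717 to 23909566, 2 exons) rose in the PCOS group. The 250 bases before its RefSeq start, at chr1:24520249-24520498 of GRCr8 on the plus strand, are shown because they hold a match, in capitals at bases -49 to -44, to letters bound by GATA proteins. The letters searched for GATA proteins were AGATAA on either strand, which 10.3% of all windows hold. The RUNX, C/EBP, GATA and half-site letters were each searched in 7 windows of 6 members. A match describes the letters only, and whether a GATA protein acts on Tcf21 was not tested.
Tcf21: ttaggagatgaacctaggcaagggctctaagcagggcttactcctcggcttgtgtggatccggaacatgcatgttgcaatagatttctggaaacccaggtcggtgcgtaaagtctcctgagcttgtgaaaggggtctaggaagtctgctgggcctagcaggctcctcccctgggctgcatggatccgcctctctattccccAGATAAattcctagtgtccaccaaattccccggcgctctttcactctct
Its level was 16.7, 17.4, 16 and 15.7 FPKM in the control rats, 29.1, 26.4, 21.9 and 18.1 in the PCOS rats and 20.3, 20.1, 19.1 and 22.8 in the PCOS-MV rats. The control rats were below all rats of both other groups, the PCOS rats spread widely, and the PCOS and PCOS-MV ranges overlapped. The means were 16.5 ± 0.754, 23.9 ± 4.84 and 20.6 ± 1.56 FPKM (SD, n = 4). Tcf21 rose by 0.49 log2 units in PCOS ovaries (standard error 0.13, limma adjusted p = 0.0268), and the log2 difference of PCOS-MV and PCOS was -0.19 (95% interval -0.5 to 0.13, limma adjusted p = 0.356). The call was lost without control replicate 4 (adjusted p = 0.0649), PCOS replicate 1 (0.054) or PCOS replicate 2 (0.076), all from limma.

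More stromal markers fell than rose in PCOS ovaries. Of 7 tested, 1 rose and 4 fell (median log2 difference -0.61), and 3 rose and 1 fell in PCOS-MV against PCOS (median 0.61). The 5 calls of the first comparison became 3 without control replicate 2 or PCOS replicate 2 and with 1 model for all 12 libraries. Pdgfra, the receptor by which stromal and theca progenitors are recognised, rose by 0.81 log2 units, while the collagen gene Col3a1 fell by 1.05 and Lum, the matrix proteoglycan lumican, by 0.92. The summed FPKM of the 7 markers was 912 to 1480 in the control rats, 831 to 922 in the PCOS rats and 822 to 1430 in the PCOS-MV rats. Per 1000 FPKM of these markers Tcf21 stood at 11.3 to 17.3, 19.6 to 32.9 and 14.2 to 23.2 FPKM, and the log2 difference of PCOS and control ovaries was 0.95 (exact permutation p = 0.0286, a scale chosen after seeing the data). In PCOS-MV against PCOS it was -0.61 (exact permutation p = 0.0857). The sum holds matrix genes such as Col3a1 and Lum, which fell in PCOS, so this scale moves with them as well as with Tcf21. No conclusion is drawn from it. Of 7 theca markers tested, 3 rose and 2 fell in PCOS. Insl3, a theca cell hormone, rose by 7.43 and Cyp17a1, which makes androgens, by 5.12 log2 units. Cyp11a1, which is also in the luteal list, fell by 1.14 and Ptch1 by 0.43. Of 5 tested bHLH partners and relatives of Tcf21, 1 rose and 1 fell in PCOS: Tcf3, its E-protein partner, rose by 0.33, and Msc, its closest relative, fell from 9.89 ± 1.03 to 4.96 ± 1.14 FPKM (SD, n = 4) and rose to 7.40 ± 1.08 FPKM in PCOS-MV ovaries. These 2 calls became 1 without control replicate 4 or PCOS replicate 1, 2 or 4, and the 1 in PCOS-MV against PCOS became 0 with the replicate block, after rescaling by the median ratio, and without PCOS replicate 1 or 4 or PCOS-MV replicate 1, 3 or 4.

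Set beside the control group directly, the PCOS-MV group showed 2 members whose unadjusted p was under 0.05, both above the control level. Of all 13430 genes tested, 1142 had such a p. Gata4 was 0.42 log2 units higher (95% interval 0.12 to 0.72, limma unadjusted p = 0.0125, limma adjusted p = 0.509, exact permutation p = 0.0571) and Tcf21 was 0.30 higher (95% interval 0.13 to 0.47, limma unadjusted p = 0.00354, limma adjusted p = 0.467). Tcf21 was the 1 member of 10 with separate ranges in these groups (exact permutation p = 0.0286), which 5.1% of all genes tested also showed. For comparison, 4 members had separate ranges in PCOS and control (31.0% of all genes) and 3 between PCOS-MV and PCOS (30.0%). For Runx2 the PCOS-MV and control groups differed by 0.016 (95% interval -0.56 to 0.59) and for Cebpb by -0.10 (95% interval -0.57 to 0.38). These intervals do not show that the levels were equal.

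The order of the members by mean FPKM differed between groups. In control ovaries Cebpb came first, followed by Foxl2, Runx2 and Gata4, whose ranges overlapped from neighbour to neighbour, then by Gata6, Tcf21 and Wt1, again with overlapping neighbours, then Runx1, and last Lhx9 and Sox9. In PCOS ovaries Gata4, Foxl2 and Cebpb came first with overlapping neighbours, then Tcf21, then Gata6 and Wt1, and Runx2 stood between Wt1 and Runx1, whose ranges it overlapped. In PCOS-MV ovaries Cebpb was first again, and Runx2 came after Foxl2 and Gata4, with overlapping neighbours.

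Across the relatives and partners of these factors and other gonadal transcription factors, 9 lists with 58 genes tested, 12 rose and 6 fell in PCOS against control (31.0% of the 58, beside 27.4% of all genes tested). In PCOS-MV against PCOS, 4 rose and 13 fell (29.3%, beside 25.7% of all genes). These shares are near those of all genes, and nothing particular to the lists is read from them. In PCOS-MV against control, 0 were called by limma and 6 had an unadjusted p under 0.05. The largest changes were among the 18 other gonadal transcription factors tested, of which 7 rose and 1 fell in PCOS, and 0 rose and 7 fell in PCOS-MV against PCOS. Nr0b1, which encodes DAX1, a repressor of steroid synthesis genes, was at 1.92, 4.35, 2.62 and 6.49 FPKM in control rats, 27.9, 62.6, 43.4 and 28.9 in PCOS rats and 2.30, 0.543, 5.81 and 1.21 in PCOS-MV rats. It rose by 3.12 log2 units (limma adjusted p = 0.000315) and fell by 3.74 (limma adjusted p = 0.000803). Osr1, a zinc finger gene of intermediate mesoderm, rose by 2.12 log2 units, from 2.94 ± 0.29 to 16.3 ± 2.51 FPKM (SD, n = 4) and fell by 1.88 in PCOS-MV against PCOS. Nr5a1, the gene of SF-1, which acts with GATA4 at steroidogenic promoters, rose by 1.04 and fell by 0.75. Six4, a homeobox gene upstream of Nr5a1 in the gonadal ridge, fell by 0.67 in PCOS.

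Among 6 SOX relatives tested, Sox5 and Sox12 rose and Sox18 fell in PCOS. These 3 calls became 1 without control replicate 1 or 2 or PCOS replicate 2, 3 or 4, and 2 with the replicate block. Sox18, a factor of endothelial cells, fell from 20.1 ± 3.03 to 9.95 ± 0.881 FPKM (SD, n = 4) and rose to 17.4 ± 4.12 FPKM in PCOS-MV ovaries. Of 6 endothelial markers tested, 5 fell and 1 rose in PCOS, with Kdr, the VEGF receptor, falling from 24.8 ± 3.34 to 10.6 ± 1.81 FPKM (SD, n = 4), and their summed FPKM was 113 to 143 in control, 71.5 to 91.6 in PCOS and 97.0 to 139 in PCOS-MV rats. Among 7 forkhead relatives of Foxl2 tested, 0 were called in PCOS against control by limma (2 with an unadjusted p under 0.05, and 2 called without control replicate 3) and 1 in PCOS-MV against PCOS: Foxo1, a granulosa factor switched off at luteinization, went from 99.7 ± 5.89 to 57.7 ± 19.0 FPKM (SD, n = 4), a fall of 0.83 log2 units (limma adjusted p = 0.0151). After rescaling by the median ratio, 1 of the 7 was called in PCOS against control.

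Over the 12 libraries, the genes whose centred log2(FPKM + 1) came closest to that of a called member were found by the root-mean-square difference. For Runx2 these were Mgat3, a glycosyltransferase, and Klhdc8a, a kelch-domain gene, each at 0.26 where Runx2 itself spread by 1.22. Klhdc8a was at 52.0 to 103 FPKM in control, 7.62 to 11.2 in PCOS and 53.7 to 96.9 in PCOS-MV rats. For Cebpb they were Rheb, the small GTPase that activates mTORC1, at 0.18, and Fam91a1 at 0.19, against a spread of 0.55. For Gata4 they were Fahd2a (0.13) and Tceal9 (0.14), against 0.39, and for Tcf21 Pmp22 (0.11), a myelin and fibroblast membrane protein, and Irf5 (0.12), an interferon regulatory factor, against 0.26. These distances come from 12 libraries in 3 groups and describe likeness of pattern only.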

How the data were processed

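Ovarian RNA of 12 rats, 1 library per rat, was sequenced as 150 bp paired-end reads from NEBNext Ultra libraries, and 4 rats per group were given by the study as separate animals. The authors filtered the reads and deposited FPKM values per gene, computed from fragment counts and gene length. The study's methods name HISAT2 2.0.5 and featureCounts, whereas the submitters' processing notes name STAR 2.5.1b and HTSeq 0.6.0, and the genome build is not given in the sources used here. The deposited table also holds the authors' group means and their own fold changes and p-values, which were not used. Each gene's values are repeated on each of 26928 transcript lines, and 1 line per gene was kept (19730 genes).

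Libraries were assigned to groups by their titles, and columns of FPKM values to libraries by name and number. The columns named MG were taken as the PCOS-MV libraries, with MG read as mogroside. The titles do not use this short name, so that step is an inference. The 13430 genes whose mean over the 12 libraries reached 1 FPKM were tested as log2(FPKM + 1), pseudocount 1, with limma 3.58.1 in R 4.3.3 (lmFit, eBayes with trend), 4 libraries against 4, with Benjamini-Hochberg adjustment over all genes tested. This scale understates fold changes of low genes. Single values and within-library ratios were compared by exact two-sided permutation tests with scipy 1.17.1. Tables were handled with Python 3.11.15 and pandas 2.3.3. The test was tested on simulated data. Depth was estimated from the spacing of low values. Between 33.1% and 37.9% of these lay on such steps, within 2% of a step, too few for tests on counts. Intervals at 95% are those of limma. Since the values are FPKM, depth is known only from this estimate.

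The 10 genes and the gene lists were chosen with earlier results of these data known. Named genes were the 10 members, from each list up to 2 called genes with the largest rise and up to 2 with the largest fall, and the 2 genes nearest in pattern to each called member. Cbfb, Zfpm1, Zfpm2, Nr5a1, Inha, Gja1, Krt19, Krt7, Igfbp4, Lif, Shroom3 and Dsg2 were named outside this rule after their values were seen. Wtip was matched by an older symbol. Listed genes Sox4, Znrf3, Hsd3b1, Akr1c18, Foxj1, Ovgp1, Itgam, Pecam1 and Oosp1 were not analysed here. Promoter windows came from RefSeq (GRCr8), which gave 7 windows for 6 of the 10 genes, and no coordinates were converted between builds. The kit is not stated to keep the strand, but 0 of the 10 genes overlapped another gene of the table.

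Alternatives were a pseudocount of 0.1, no filter on low values, libraries rescaled by their median ratio, 1 model for all 12 libraries, eBayes without trend, the replicate number as a block, and each library left out in turn. Levels relative to marker sums were added after seeing the data. The correlation of deviations of same-numbered libraries was -0.053 to 0.216, so the numbers were not taken to pair the rats.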

Additional observations from a re-analysis of the deposited data

Results flagged for a closer look

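In 39 groups of 4 rats (10 genes and 3 within-library ratios in 3 groups), 2 held a value whose gap to the nearest of the others exceeded Dixon's critical value on the log2(FPKM + 1) scale, where chance gives about 1 group in 20. Runx2 in PCOS replicate 3 was at 10.3 FPKM, against 5.44 to 5.88 in the other PCOS rats, and the gap took 0.883 of the range. The value still lay below that of every control and PCOS-MV rat. Sox9 in control replicate 3 was at 2.67 FPKM, against 0.537 to 0.674 in the other controls, and the gap took 0.902 of the range. In the same library surface epithelium markers summed to 200 FPKM, oviduct markers to 27.6 FPKM and smooth muscle markers to 915 FPKM, and their part in the Sox9 value was not tested.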

How the results depend on the processing

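Over all alternatives, the number of members called was 3 to 5 in PCOS against control, 2 to 4 in PCOS-MV against PCOS and 0 in PCOS-MV against control, also without control replicate 3, where it was 5 and 0 in the comparisons with the controls. With the replicate block, 4 members were called in PCOS against control and 4 in PCOS-MV against PCOS, where Foxl2 was added (limma adjusted p = 0.0498), and 0 in PCOS-MV against control. Foxl2 was also called without PCOS-MV replicate 1 (adjusted p = 0.0467), and the fall of Gata4 in PCOS-MV was not called without the filter on low values (adjusted p = 0.0628). Of 390 values of single members under the alternatives, 363 kept direction and call, 12 lost the call, 3 gained it and 12 changed sign. In PCOS against control, the sign changed for Runx1 (-0.031 to 0.15 with a library left out), Lhx9 (-0.37 to 0.11) and Cebpb relative to luteal markers (0.22). In PCOS-MV against PCOS it changed for Gata4 relative to granulosa markers (0.19). In PCOS-MV against control, it changed for Wt1 (-0.40 to 0.066), Runx2 (-0.16 to 0.16), Cebpb (-0.28 to 0.0098, and 0.26 relative to luteal markers) and Lhx9 (-0.029 to 0.25), also with a library left out; the libraries were control replicate 1 or 4 or PCOS replicate 3 in the first comparison and control replicate 3 or PCOS-MV replicate 1, 2 or 3 in the last. Of the counts over the gene lists under the alternatives, 804 stayed within 1.5 times of those given and 78 did not. The cause of these changes was not tested. Depth limits Sox9 and Lhx9 most, at about 16 and 15 fragments in their lowest libraries.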

Other observations

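The 4 PCOS-MV rats did not look alike in the luteinization genes. Replicates 2 and 4 held Runx1 at 25.5 and 17.7 FPKM and Runx2 at 34.1 and 30.8 FPKM, whereas replicates 1 and 3 held Runx1 at 6.23 and 6.67 FPKM and Runx2 at 55.0 and 52.8 FPKM. The genes nearest to Runx1 in pattern were picked over these same libraries, so their likeness in these rats follows from the choice. Igfbp4, an insulin-like growth factor binding protein, was at 193 and 202 FPKM in replicates 2 and 4 and at 69.3 and 80.1 FPKM in replicates 1 and 3. Lif, a cytokine of the interleukin 6 family, was at 4.26 and 2.84 against 0.419 and 0.455 FPKM. Fgf9 was at 0.94 and 0.458 FPKM in replicates 2 and 4 and at 3.33 and 3.57 FPKM in replicates 1 and 3. Luteal markers summed to 3490 and 3540 FPKM in replicates 2 and 4 and to 8120 and 7320 FPKM in replicates 1 and 3. These rats were set apart after their values were seen, so no test was made.

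The genes nearest in pattern to Wt1 were Shroom3 and Dsg2, the latter a desmosomal cadherin of epithelia, with 5.95 and 13.4 FPKM in control replicate 3 and 1.73 to 2.27 and 4.57 to 7.39 FPKM in the other controls. Both were picked by likeness to Wt1 over these same libraries, so this likeness follows from the choice. Krt7, a keratin of simple epithelia, was at 14.3 FPKM in control replicate 3 and at 0.783 to 1.49 FPKM in the other controls.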
